A study of Mus musculus with 8 samples.

Results

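Genes that let a cell sense interferon were followed across splenic dendritic cells (DC) of mice with leukemia: Ifnar1, Ifnar2, Ifngr1, Ifngr2, Jak1, Jak2, Tyk2, Stat2 and Socs1. These 9 were chosen by symbol, as the receptor chains, receptor-bound kinases, a transcription factor and an inhibitor of the interferon pathway. Each symbol matched 1 of the 27179 Entrez gene IDs in the table of read counts. All 9 passed the filter on low counts, which left 14238 gene IDs for testing. Plasmacytoid DC (pDC) and conventional DC (cDC) had been sorted from spleens of leukemia-bearing C57BL/6 mice after 2 days of panobinostat (LBH589), an inhibitor of histone deacetylases, or of vehicle (D5W, dextrose in water). The 4 groups were vehicle pDC, panobinostat pDC, vehicle cDC and panobinostat cDC. Each group held 2 libraries, numbered replicate 1 and 2, and each library came from a pool of 3 to 6 mice, so values of single animals are not seen. All 4 groups carried leukemia. Neither the age of the mice nor the kind of leukemia is given in the sources used here, and the extraction text of the labels speaks of leukemia cells where the titles name DC.

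As background, type I interferons (interferon alpha and beta) bind a receptor made of the IFNAR1 and IFNAR2 chains, to which the kinases TYK2 and JAK1 are bound. Interferon gamma, the type II interferon, binds IFNGR1 and IFNGR2, which carry JAK1 and JAK2. The kinases phosphorylate STAT proteins. STAT2 acts with IRF9 on type I target genes at a DNA element called ISRE, and interferon gamma acts through another element, called GAS. SOCS1 is itself induced by interferon and blocks the kinases. pDC are known for releasing large amounts of type I interferon, cDC for presenting antigen to T cells.

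Total counts were 13124861 to 20657429 per library, and the 9 genes together took 15909 to 45949 of them. Panobinostat pDC replicate 2 had the fewest of both and stood apart: 10745 gene IDs had a count there, against 14927 in panobinostat pDC replicate 1 and 16109 to 19950 in the others. Across genes, log2 CPM (the depth-scaled count after TMM scaling) gave r = 0.801 between both panobinostat pDC libraries and r = 0.965 to 0.973 within the other groups. The main panobinostat results of pDC are also given without it. The pDC marker list summed to 12125 to 17395 CPM in pDC and 360 to 393 CPM in cDC. The cDC list did not separate the labels by its sum (1955 to 3782 CPM in pDC, 2254 to 2860 in cDC), with 1 of its 10 genes at 0 in 2 pDC libraries (Clec4a4 in vehicle replicate 1, Xcr1 in panobinostat replicate 2). Its Cd209a was at 754 to 1883 CPM in pDC and 81.3 to 142 in cDC, while Zbtb46, a defining gene of cDC, was at 2.37 to 19.6 CPM in pDC and 137 to 199.9 in cDC. Macrophage and monocyte markers summed to 2177 to 6629 CPM in pDC and 557 to 749 in cDC, and 6 of their 8 genes were at 0 in panobinostat pDC replicate 2. Ly6c2 gave most of the pDC sum (1674 to 5958 CPM), while Csf1r, another gene of this list, was at 0 to 10.8 CPM in pDC and 87.0 to 204 in cDC. Of the 8 estimates for pDC against cDC under vehicle, 2 were above 0 and 6 below 0. The 5 erythroid markers found summed in pDC to 2092 and 1161 CPM with vehicle and 6477 and 2407 CPM with panobinostat (median log2 difference 1.40), with Klf1 at 0 in panobinostat pDC replicate 2. In cDC they summed to 1350 and 701 CPM, then 1826 and 312 CPM (-0.0033). The 8 B cell markers summed to 122 and 196 CPM, then 158 and 425 CPM, in pDC (0.93), and to 143 and 482 CPM, then 118.6 and 288 CPM, in cDC (-1.28). By edgeR 0 genes of either list passed for the drug. The part of other cells in the results below was not tested. Fewer cells of a type and less RNA per cell cannot be told apart in such bulk samples.

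Stat2 and Socs1 were the 2 of the 9 genes whose promoter windows held the ISRE letters, so their sequences are shown before the values. The windows, from the RefSeq promoter table of GRCm38.p6, run from 250 bases before to 50 after the start of transcription. The letters searched were GAAA, any 2 bases and GAAA again, on both strands, and 1131 of 32851 windows (3.44%) held them. The capitals mark the ISRE letters, which lie in reverse in Stat2 (chr10:128270248-128270320, plus strand) and as 2 overlapping matches in Socs1 (chr16:10785569-10785654, minus strand, printed 5′ to 3′ of the gene).
Stat2: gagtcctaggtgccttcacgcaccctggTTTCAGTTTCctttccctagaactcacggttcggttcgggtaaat
Socs1: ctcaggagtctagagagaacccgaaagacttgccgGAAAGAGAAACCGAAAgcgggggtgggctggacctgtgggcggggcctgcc
The Stat2 match began 222 bases before the start, and the Socs1 matches began 83 and 77 bases before it. The Stat2 match was overlapped by 1 to GGAA, any 2 bases and GAAA, the letters of the element bound by PU.1 or SPIB with IRF4 or IRF8, which 2.72% of windows held. GAS letters (TTCNNNGAA) were found in Ifnar1, 5 bases before the start, and in Ifnar2, 214 bases before it, and in 8.3% of all windows. A match is a description of letters and not a bound site. For scale, 9 of the 15 type I target genes with a window held the ISRE letters, and 7 of the 14 interferon gamma targets.

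The first comparison set pDC against cDC under vehicle, for the genes through which each interferon is received. pDC had more RNA of both type I receptor chains, and cDC had more of both interferon gamma receptor chains. Of the 9 genes, 4 passed the test, all of them receptor genes, with 2 higher and 2 lower in pDC. Over all genes 9.73% passed, 5.01% higher and 4.71% lower. DESeq2 called these 4 with Stat2 and Socs1, and limma-voom called them with Stat2. The shares of all genes here and below are those of edgeR. DESeq2 called more of all genes than edgeR in each comparison, and its totals are given in the last section. The limma-voom total between the cell types is not given. Adjusted p values here and below come from the quasi-likelihood test of edgeR, fitted on all 8 libraries and adjusted by Benjamini-Hochberg over the 14238 genes, and errors are SD over n = 2 libraries for levels and SE for log2 fold changes. The libraries are called biological replicates by the submitters, but nothing says which mice entered which pool.

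Ifnar1 (Entrez Gene 15975), the chain that binds TYK2, stood at 479 and 463 CPM in vehicle pDC and at 115 and 107 CPM in vehicle cDC. The groups did not overlap, and the fitted log2 fold change was 2.09 ± 0.18, or 4.24-fold (adjusted p = 0.00224). Ifnar2 (15976), the chain with the higher affinity for interferon, stood at 437 and 585 CPM in vehicle pDC and at 98.7 and 95.7 CPM in vehicle cDC. Its log2 fold change was 2.39 ± 0.27, or 5.25-fold (adjusted p = 0.00452). This call did not hold without vehicle cDC replicate 1 (2.42, adjusted p = 0.0571) or replicate 2 (2.37, adjusted p = 0.0588), at nearly the same size.

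Ifngr1 (15979), the ligand-binding chain of the interferon gamma receptor, showed the widest gap of the 9 genes. It stood at 77.4 and 87.9 CPM in vehicle pDC and at 753 and 1057 CPM in vehicle cDC. The log2 fold change was -3.45 ± 0.25, which is 10.9-fold lower in pDC (adjusted p = 0.00147). Ifngr2 (15980), the chain that brings JAK2, had 74.3 and 98.9 CPM in vehicle pDC and 165 and 175 CPM in vehicle cDC. Its log2 fold change was -0.97 ± 0.20, 1.96-fold lower in pDC (adjusted p = 0.0329). The Ifngr2 call was less firm than those of the other chains, since it did not pass when any 1 of the 4 vehicle libraries was left out. The values were -0.77 (adjusted p = 0.18) and -1.23 (0.0647) when replicates 1 and 2 of vehicle pDC were dropped in turn, and -1.01 (0.176) and -0.93 (0.2001) for replicates 1 and 2 of vehicle cDC. It also did not pass without panobinostat cDC replicate 1 (adjusted p = 0.101) or 2 (0.1005), both at -0.97, or with no filter on low counts (-0.98, adjusted p = 0.0507). The calls of Ifnar1 and Ifngr1 held in all 15 alternatives tried, Ifnar1 between 1.96 and 2.15 and Ifngr1 between -3.67 and -3.19.

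**Figure D1:**
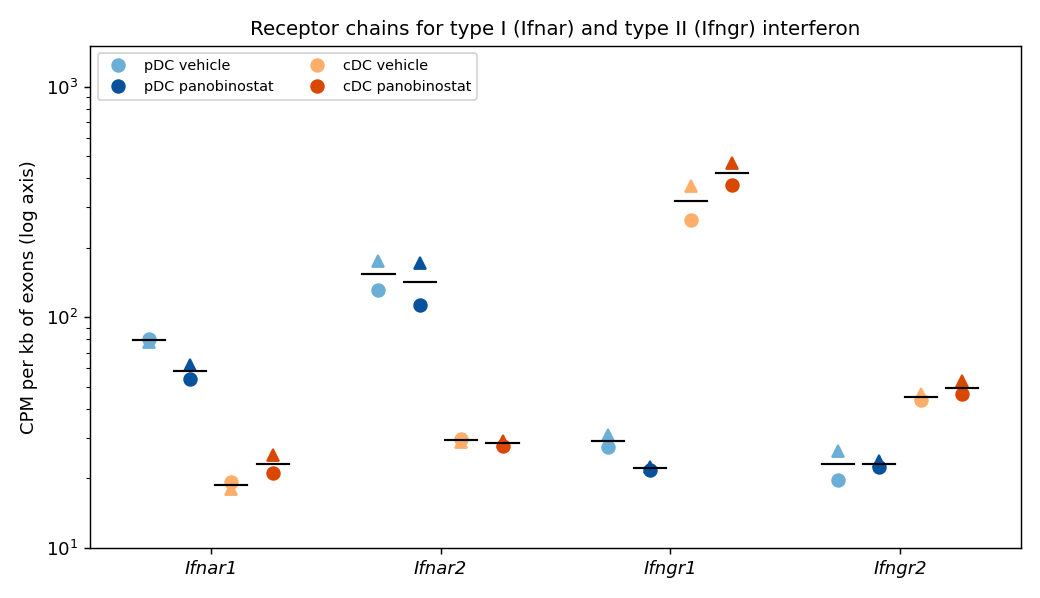
Levels of the 4 receptor chains per library, in CPM per kb of exons on a log axis. Circles are replicate 1, triangles replicate 2 and lines the group means. In both treatments the Ifnar chains are higher in pDC and the Ifngr chains higher in cDC, and Ifngr1 in cDC is the highest of all.

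Per kb of exons, which allows levels of different genes to be compared, the 2 receptors changed places between vehicle pDC and vehicle cDC. In these 2 groups the order of chains within each receptor was the same. In vehicle pDC Ifnar2 was highest with 153 ± 31.5 CPM per kb, followed by Ifnar1 with 79.3 ± 1.89, Ifngr1 with 29.0 ± 2.60 and Ifngr2 with 23.0 ± 4.62. The libraries of Ifngr1 and Ifngr2 did not overlap there, and those of the other neighbours did not either. In vehicle cDC Ifngr1 was highest with 318 ± 75.5 CPM per kb, at percentile 99 of the 12748 tested genes with a length. Ifngr2 followed with 45.1 ± 1.87, Ifnar2 with 29.2 ± 0.653 and Ifnar1 with 18.7 ± 0.933 CPM per kb. The summed type I chains over the summed type II chains, per kb, gave 4.51 and 4.44 in vehicle pDC and 0.159 and 0.112 in vehicle cDC. The 2 chains of 1 receptor were also unequal in different ways. Ifngr1 over Ifngr2 per kb was 0.950 to 1.38 in pDC and 6.04 to 8.88 in cDC, over 4 libraries each. In panobinostat pDC this ratio was 0.973 and 0.950, so that Ifngr2 was slightly the higher chain there.

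The split ran through 1 gene cluster. Ifnar2, Il10rb, Ifnar1 and Ifngr2 lie in this order within 191.2 kb of chromosome 16 (GRCm38.p6, 91372783 to 91564007) and are its 4 protein-coding genes. The first and the third were higher in pDC and the last was higher in cDC. Il10rb, which codes for a chain shared by the interleukin 10 and type III interferon receptors, stood at 142 and 195.5 CPM in vehicle pDC and 97.5 and 117 CPM in vehicle cDC, with a log2 fold change of 0.65 ± 0.22 that did not pass (adjusted p = 0.125). Ifngr1 lies elsewhere, on chromosome 10 (19591949 to 19610229). Ifnlr1, the specific chain of the type III receptor, had 3 and 0 counts in vehicle pDC and 72 and 65 in vehicle cDC, and 0 and 0 against 40 and 53 under panobinostat (adjusted p = 0.0773 under vehicle).

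None of the 3 kinases passed between vehicle pDC and cDC. Jak1 (16451), shared by both receptors, had 238 and 229 CPM in pDC and 271 and 262 CPM in cDC, a log2 difference of -0.19 with a 95% interval from -0.70 to 0.32. Tyk2 (54721), the partner of IFNAR1, had 202 and 148 CPM in pDC and 192 and 203 CPM in cDC, and its groups overlapped (log2 difference -0.17, interval -0.95 to 0.60). Both intervals exclude a 2-fold difference, and smaller differences could not be told from 0. Jak2 (16452), the partner of IFNGR2, was lower in both pDC libraries, with 42.9 and 44.6 CPM against 116 and 121 CPM in cDC. Its log2 difference of -1.44 ± 0.59 did not pass (adjusted p = 0.202). The Jak2 libraries of panobinostat pDC, which enter the shared estimate of spread, lay at 67.5 and 16.2 CPM. Without replicate 1 or 2 of that group the Jak2 difference passed, at -1.43 (adjusted p = 0.000749) and -1.46 (0.000716), and with only the 4 vehicle libraries at -1.47 (0.00376).

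Stat2 (20847), the STAT of the type I pathway, had 376 and 234 CPM in vehicle pDC and 108 and 76.9 CPM in vehicle cDC. Both pDC libraries were above both cDC libraries. The log2 fold change of 1.72 ± 0.43 missed the threshold (adjusted p = 0.0585), and it passed in 7 of 15 alternatives. Among these were a replicate block (1.70, adjusted p = 0.0270), DESeq2 (1.60, 0.0115), limma-voom (1.71, 0.0374) and no filter on low counts (1.72, 0.0199). Socs1 (12703), the inhibitor, was low throughout, with 2.07 and 7.62 CPM in vehicle pDC (41 and 141 counts) and 13.9 and 15.97 CPM in vehicle cDC. Its groups did not overlap, and the log2 fold change of -1.62 ± 0.68 did not pass by edgeR (adjusted p = 0.213) and passed by DESeq2 (-1.77, adjusted p = 0.0363). In all, 3 of the 9 genes were higher in both pDC libraries (35.1% of all genes), 5 were lower in both (35.5%) and Tyk2 overlapped. The median log2 fold change was -0.19 over the 9 genes and 0.02 over all genes.

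**Figure D2:**
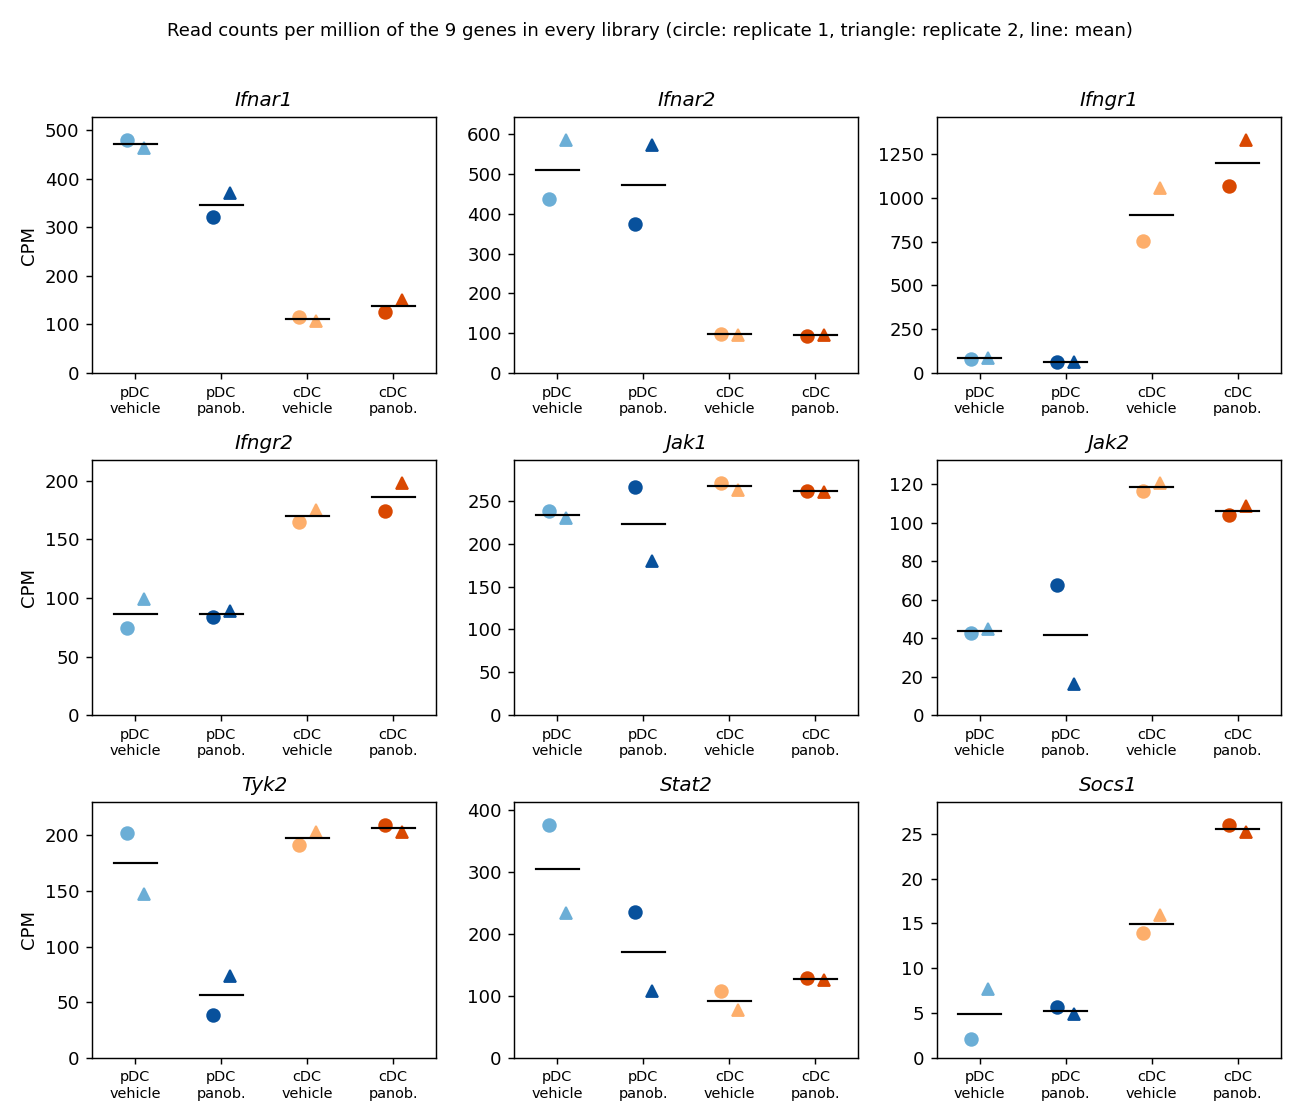
CPM of the 9 genes in every library, 1 panel per gene with an axis from 0. Circles are replicate 1, triangles replicate 2 and lines the group means. The 4 receptor genes separate pDC from cDC, Tyk2 is lowest in panobinostat pDC (38.8 and 73.6 CPM), and the Jak2 libraries of panobinostat pDC lie far apart (67.5 and 16.2 CPM).

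The same comparison with the panobinostat libraries, chosen after the data were seen, gave the receptor pattern again. Here 5 of the 9 genes passed, beside 18% of all genes: Ifnar1 and Ifnar2 higher in pDC (log2 fold changes 1.33 ± 0.17 and 2.33 ± 0.27) and Ifngr1, Ifngr2 and Tyk2 lower (-4.25 ± 0.26, -1.10 ± 0.20 and -1.88 ± 0.33). Their adjusted p values ran from 0.00104 to 0.0175. Higher calls made up 7.76% and lower calls 10.2% of all genes. Of the 9 genes, 2 lay above in both pDC libraries (24.7% of all genes), 5 lay below in both (38%) and 2 overlapped. For Ifngr1 the gap was 19.1-fold, with 61.8 and 64.0 CPM in panobinostat pDC and 1069.8 and 1329.5 CPM in panobinostat cDC. The log2 difference of Jak2 was -1.34 with all 8 libraries and -0.71 without panobinostat pDC replicate 2. With the 4 panobinostat libraries alone, which leaves fewer degrees of freedom, Ifngr1 was the only call (-4.28, adjusted p = 0.0431). The summed type I chains over the summed type II chains per kb gave 3.78 and 5.08 in panobinostat pDC and 0.115 and 0.104 in panobinostat cDC.

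The second comparison asked what panobinostat did to these genes in pDC. None of the 9 passed by edgeR, and 2 had an unadjusted p below 0.05 (Tyk2 and Ifnar1), beside 2119 of all 14238 genes. By limma-voom 0 of the 9 were called, and by DESeq2 1 (Tyk2). Over all genes 0.0913% passed by edgeR, 0.014% higher and 0.0773% lower (2 and 11 genes), with 1 higher and 1 lower under RLE scaling and 3 higher and 6 lower with library size alone. Both treated libraries lay below both vehicle libraries for 3 of the 9 genes, Ifnar1, Ifngr1 and Tyk2, beside 26.5% of all genes. No gene of the 9 lay above in both, beside 15.8% of all genes. These panobinostat comparisons use the same vehicle libraries as the comparison of the cell types. The median change was -0.11 log2 units over the 9 genes and -0.14 over all genes, and -0.42 and -0.07 without panobinostat pDC replicate 2.

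Tyk2 had the largest difference, with 202 and 148 CPM in vehicle pDC and 38.8 and 73.6 CPM in panobinostat pDC. The log2 fold change was -1.64 ± 0.33 with a 95% interval from -2.44 to -0.84 (unadjusted p = 0.00217, adjusted p = 0.148). With DESeq2 it was -1.61 (adjusted p = 0.00565). Leaving out either treated library brought Tyk2 past the threshold, at -2.22 (adjusted p = 0.016) without replicate 2 and at -1.26 (0.00626) without replicate 1. Ifnar1 went from 479 and 463 CPM to 320.5 and 369.6 CPM, a log2 difference of -0.45 ± 0.17 (adjusted p = 0.304; -0.61 and 0.132 without replicate 2). Both treated Ifnar1 libraries stayed above all 4 cDC libraries. Ifngr1 went from 77.4 and 87.9 CPM to 61.8 and 64.0 CPM (log2 difference -0.39 ± 0.23, adjusted p = 0.45; -0.47 and 0.354 without replicate 2).

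For the other 6 genes treated and vehicle pDC overlapped. Ifnar2 had 375 and 573 CPM with panobinostat (log2 difference -0.11, 95% interval -0.72 to 0.50) and Ifngr2 84.0 and 89.2 CPM (0.00, interval -0.48 to 0.48). Jak1 had 266 and 179.9 CPM, a log2 difference of -0.07 with an interval from -0.58 to 0.45. Without panobinostat pDC replicate 2 these were -0.50 for Ifnar2, -0.099 for Ifngr2 and 0.14 for Jak1. Stat2 had 236 and 107 CPM, a log2 difference of -0.83 with an interval from -1.84 to 0.19, and -0.42 without replicate 2. Socs1 had 5.70 and 4.83 CPM (115 and 52 counts), a log2 difference of 0.12 with an interval from -1.502 to 1.74, which leaves changes of several fold undetectable at this depth and spread. Jak2 had no usable estimate. Its 2 treated libraries lay on either side of the vehicle libraries, so that its log2 difference of -0.06 turned to 0.57 (adjusted p = 0.0942) without panobinostat pDC replicate 2 and to -1.44 (adjusted p = 0.00102) without replicate 1. Without replicate 1, the shallow library alone stood for the treatment, and Tyk2, Jak2 and Stat2 (-1.52, adjusted p = 0.0143) passed, beside 8227 calls over all genes. Without replicate 2, Tyk2 alone of the 9 passed, beside 719 calls.

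**Figure D3:**
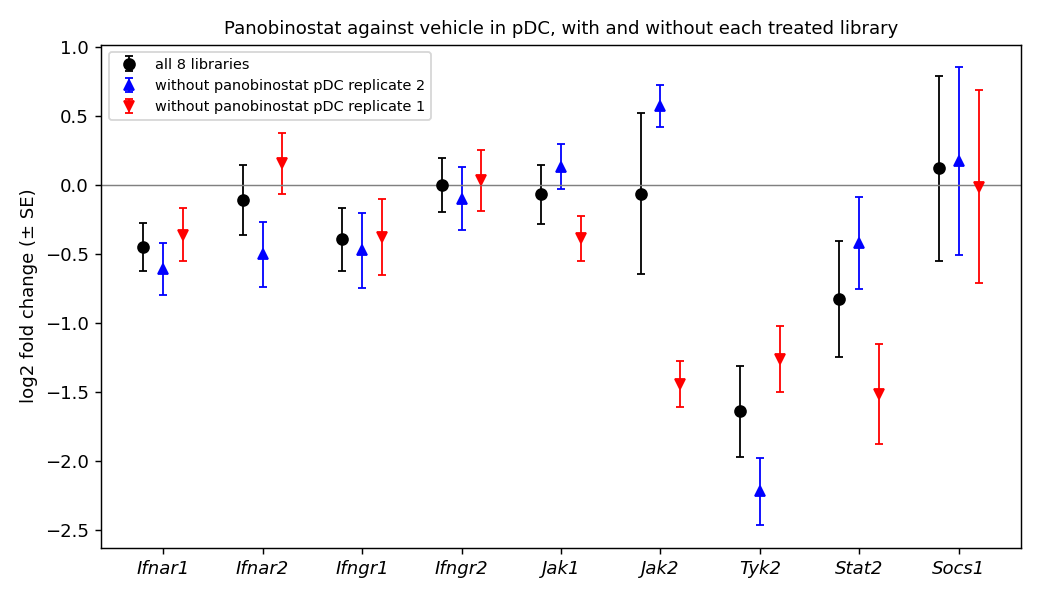
Fitted log2 fold changes (± SE) of panobinostat against vehicle in pDC for the 9 genes, from all 8 libraries and without each treated pDC library. Tyk2 lies below 0 in all 3 fits (-1.64, -2.22 and -1.26), and Jak2 changes sign with the library left out (0.57 and -1.44).

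In cDC panobinostat moved none of the 9 genes past the threshold. edgeR called 0 of 9, 0 had an unadjusted p below 0.05, and DESeq2 and limma-voom called 0. Over all genes 0% passed by edgeR, 206 had an unadjusted p below 0.05, and DESeq2 called 15 and limma-voom 0. Both treated libraries were above both vehicle libraries for 5 of the 9 genes, Ifnar1, Ifngr1, Tyk2, Stat2 and Socs1, beside 22.2% of all genes. Jak1 and Jak2 were below in both, beside 18.8% of all genes. The median change was 0.13 log2 units over the 9 genes and 0.00 over all genes.

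Socs1 had the largest estimate in cDC, from 13.9 and 15.97 CPM with vehicle to 25.9 and 25.2 CPM with panobinostat. The log2 difference was 0.78 ± 0.67 with an interval from -0.84 to 2.40 (adjusted p = 1). Stat2, the other gene with ISRE letters in its window, had 129 and 126 CPM against 108 and 76.9 CPM (0.47, interval -0.55 to 1.48). Ifngr1 had 1069.8 and 1329.5 CPM against 753 and 1057 CPM (0.41, interval -0.14 to 0.96). Ifnar1 had 125 and 149.6 CPM against 115 and 107 CPM (0.31 ± 0.17). The kinases and Ifnar2 stayed close to their vehicle values, with log2 differences from -0.16 (Jak2) to 0.06 (Tyk2), and Ifngr2 had 0.13.

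**Figure D4:**
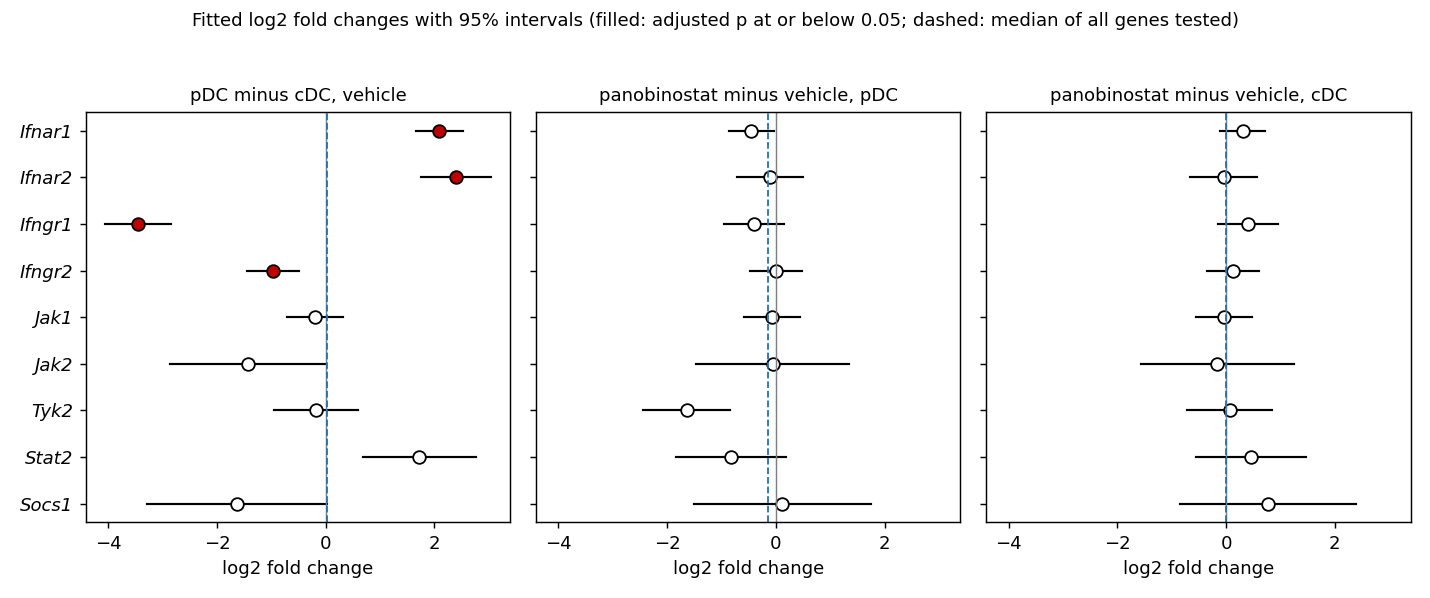
Fitted log2 fold changes with 95% intervals for the 9 genes in 3 comparisons: pDC minus cDC under vehicle, and panobinostat minus vehicle in pDC and in cDC. Filled points passed the test (the 4 receptor genes in the first panel), open points did not, and the dashed line is the median of all genes tested.

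The effects in pDC and cDC were then compared with each other. None of the 9 differences passed by edgeR, and 0.00702% of all genes did. DESeq2 and limma-voom called 0 of the 9. At an unadjusted p below 0.05 there were 3 of the 9, beside 1107 of all 14238 genes. The 3 were Tyk2 (pDC effect minus cDC effect -1.70 ± 0.46, adjusted p = 0.41), Ifnar1 (-0.76 ± 0.24, adjusted p = 0.485) and Ifngr1 (-0.80 ± 0.32, adjusted p = 0.632). In each of them the treated libraries lay below the vehicle libraries in pDC and above them in cDC. For Tyk2 the gap in cDC was slight, with 209.1 and 203.4 CPM under panobinostat against 191.5 and 203.2 CPM under vehicle (log2 difference 0.06). Without panobinostat pDC replicate 2 the Tyk2 difference was -2.27, and without replicate 1 it was -1.33. In the same fits, each with a single treated pDC library, the Stat2 difference was -0.87 and -1.99. The Jak2 difference changed sign, from 0.098 in the main fit to 0.75 without replicate 2 and -1.29 without replicate 1.

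Ordered by level over the 4 groups, Ifnar1 ran from vehicle pDC through panobinostat pDC and panobinostat cDC to vehicle cDC, and Ifngr1 from panobinostat cDC through vehicle cDC and vehicle pDC to panobinostat pDC, with no overlap between neighbours. For Ifnar2 and Ifngr2 the cell types did not overlap, and the treatments within a cell type did. Socs1, Jak1 and Jak2 had their highest means in cDC, and their 2 pDC groups overlapped, with the 266 CPM of Jak1 in panobinostat pDC replicate 1 lying among the cDC values. Tyk2 was lowest in panobinostat pDC, and vehicle pDC and vehicle cDC overlapped. Stat2 overlapped between each pair of neighbours except panobinostat and vehicle cDC.

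Across the 8 libraries Ifnar1 and Ifnar2 were nearest to each other among the 9 genes, with a root mean square difference of 0.392 between their centred log2 CPM. Candidates were 8187 named genes whose mean log2 CPM was 3 or more. Among them the gene most like Ifnar1 was Trappc5 (0.138) and the one most like Ifnar2 was Pafah1b3 (0.157). Ifnar2 came only at rank 230 for Ifnar1, and Ifnar1 at rank 116 for Ifnar2. Havcr2, which codes for the receptor TIM-3, was most like Ifngr1 (0.229), and Arpc2, a subunit gene of the ARP2/3 complex, was most like Ifngr2 (0.107). The nearest genes of the others were Ncbp1 for Jak1 (0.0635), Lrrc40 for Jak2 (0.158), Psd4 for Tyk2 (0.118), Itpr2 for Stat2 (0.220) and Akirin1 for Socs1 (0.328). These values are descriptions over libraries of 2 cell types.

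The rest of the pathway was read from lists. Of 9 other signalling genes (Stat3, Stat4, Stat5a, Stat5b, Stat6, Irf9, Jak3, Ifnlr1 and Il10rb), 0 passed in any of the 4 comparisons by edgeR. At an unadjusted p below 0.05 there were 5 in pDC, 1 in cDC, 2 for the difference and 4 between the cell types. Over all 14238 genes these counts were 2119, 206, 1107 and 3484. DESeq2 called 3, 0, 0 and 3 of the 9 signalling genes and limma-voom 0, 0, 0 and 2. Their median difference in pDC was -1.16 log2 units, beside -0.14 over all genes, and -0.73 beside -0.07 without panobinostat pDC replicate 2. Stat6, the STAT of interleukin 4, had 208 and 190 CPM in vehicle pDC and 68.1 and 28.1 CPM in panobinostat pDC (-2.05 ± 0.40, adjusted p = 0.146). Jak3, the kinase of the common gamma chain, had 74.2 and 71.2 CPM against 11.5 and 28.7 CPM (-1.86 ± 0.46, adjusted p = 0.191). Both passed by DESeq2 (adjusted p = 0.000809 and 0.0181), and Stat6 also with no filter on low counts (0.0474). Stat6 and Jak3 stood at -1.60 and -2.71 without panobinostat pDC replicate 2. They stood at -2.84 and -1.35 without replicate 1, where the shallow library alone stood for the treatment. In cDC the smallest p value among them belonged to Irf9, with 105 and 119 CPM under vehicle and 156 and 175 CPM under panobinostat (0.56 ± 0.21, adjusted p = 1). Irf9 was also higher in vehicle pDC than in vehicle cDC by 0.88 ± 0.22 log2 units, short of the threshold (adjusted p = 0.0549).

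Of 16 further negative regulators, 1 passed between the cell types, as higher in pDC, beside 5.01% of all genes. DESeq2, which called more of all genes than edgeR, called 3 there, and limma-voom 2. By edgeR 0 passed in either drug comparison and 0 for the difference. At an unadjusted p below 0.05 there was 1 in pDC, 0 in cDC and 0 for the difference, and DESeq2 and limma-voom called 0 in these 3. Their median in pDC was -0.56, and -0.12 without panobinostat pDC replicate 2. Ptpn6, which codes for the phosphatase SHP-1, was higher in pDC, with 1141 and 1151 CPM against 578 and 465.5 CPM in vehicle cDC (1.135 ± 0.20, adjusted p = 0.0213). This call did not hold without any 1 of the 4 vehicle libraries or of the panobinostat cDC libraries (largest adjusted p = 0.175). Usp18, which displaces JAK1 from IFNAR2, had 146 and 191 CPM in vehicle pDC and 260.3 and 457 CPM in panobinostat pDC (1.09 ± 0.33, adjusted p = 0.239). Without panobinostat pDC replicate 2 this was 0.57 (adjusted p = 0.274), and without replicate 1 it passed at 1.43 (0.00618). Between vehicle pDC and cDC it was 1.13 (adjusted p = 0.0897), and with a replicate block it passed (1.139 ± 0.18, adjusted p = 0.0232). In cDC its values were 64.1 and 90.3 CPM, then 117 and 139 CPM (0.73 ± 0.33, adjusted p = 1). Socs3 overlapped between treatments in both cell types.

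Other cytokine receptors that signal through JAKs also differed between the cell types, in both directions. Of 20 tested, 4 were higher and 2 lower in vehicle pDC, beside 5.01% and 4.71% of all genes. These shares are those of edgeR. DESeq2, which called more of all genes, called 4 higher and 5 lower, and limma-voom 4 and 4. Il6ra, at -1.69 (adjusted p = 0.0729), passed with a replicate block (adjusted p = 0.0363). Il7r, the interleukin 7 receptor, had 270 and 276 CPM in pDC and 21.7 and 16.3 CPM in cDC (3.85 ± 0.25, adjusted p = 0.00126). Lifr, Csf2rb2 and Csf2rb, chains of the LIF receptor and of the receptors for interleukin 3, interleukin 5 and GM-CSF, were higher by 5.72, 2.80 and 1.02 log2 units (adjusted p = 0.0113, 0.0358 and 0.045). Csf2ra, the GM-CSF binding chain, was lower, with 46.7 and 55.9 CPM against 315 and 313 CPM (-2.61 ± 0.18, adjusted p = 0.00142), and Il6st, the signal chain of the interleukin 6 family, was lower too (-1.38 ± 0.23, adjusted p = 0.0175). The calls of Il7r and Csf2ra held in all 15 alternatives. That of Lifr did not hold without vehicle pDC replicate 1 or either vehicle cDC library, and those of Csf2rb2, Csf2rb and Il6st did not without any 1 of the 4 vehicle or 2 panobinostat cDC libraries. Csf2rb2 also did not pass with library size alone, nor Csf2rb with library size alone or RLE scaling. The largest adjusted p values were 0.109, 0.228, 0.278 and 0.137 in this order. By edgeR 0 of the 20 passed for the drug in pDC, 0 in cDC and 0 for the difference, with 7, 0 and 5 at an unadjusted p below 0.05. DESeq2 called 3, 0 and 1 of them, and limma-voom 0, 0 and 0. Their median in pDC was -0.16, and -0.71 over 21 tested without panobinostat pDC replicate 2, where Il4ra passed as lower.

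On the ligand side, 2 of 21 interferon genes passed the filter on low counts, Ifnk and Ifng. Neither passed a test in any comparison by edgeR, DESeq2 or limma-voom, nor an unadjusted p of 0.05 by edgeR without a block. With a replicate block Ifng had an unadjusted p below 0.05 by edgeR in cDC and for the difference, and was not called. Ifng was near 0 in pDC, with 1 and 2 counts under vehicle and 0 and 0 under panobinostat. In cDC it had 2 and 24 counts with vehicle and 14 and 171 with panobinostat. The summed NK cell markers moved with it over the same 4 cDC libraries, from 5.03 and 38.6 CPM to 13.02 and 229 CPM. Each of those 8 markers had counts in these libraries, except Eomes in vehicle cDC replicate 1. In pDC the NK marker sum rose from 1.71 and 4.70 CPM to 10.8 and 18.95 CPM, while Ifng did not. In panobinostat pDC replicate 2, 7 of the 8 markers were at 0. The part of NK cells in the Ifng counts was not tested.

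Target genes were read on both arms. Of 20 type I targets, 1 passed in pDC: Ifi27 rose by edgeR from 43.2 and 45.0 CPM to 169 and 199 CPM (2.06 ± 0.18, adjusted p = 0.0458). At an unadjusted p below 0.05 there were 9, DESeq2 called 5 and limma-voom 0. The Ifi27 call was lost in 10 of 15 alternatives. It did not pass with a replicate block (adjusted p = 0.0718), RLE scaling (0.0503), limma-voom (0.0592) or only the 4 pDC libraries (0.973), nor without either vehicle pDC library or any 1 of the 4 cDC libraries (adjusted p up to 0.973 over all alternatives). In cDC 0 passed by edgeR, 5 had an unadjusted p below 0.05, DESeq2 called 1 (Ifi27) and limma-voom 0. All 20 estimates in cDC were above 0, and their median was 0.69 log2 units beside 0.00 over all genes. In pDC 16 of 20 were above 0 with a median of 0.60 beside -0.14, and without panobinostat pDC replicate 2 the median was 0.58 beside -0.07, with Ifi27 and Rtp4 passing as higher. For the difference between the cell types 0 passed by edgeR, with 4 at an unadjusted p below 0.05, DESeq2 called 1 and limma-voom 0. Between the cell types under vehicle 2 were higher and 1 was lower in pDC by edgeR, beside 5.01% and 4.71% of all genes by edgeR. DESeq2, which called more of all genes than edgeR, called 4 and 6 there, and limma-voom 2 and 2. Irf7, the factor behind interferon alpha transcription, and Ifi44 were higher in pDC by 2.74 and 4.16 log2 units (adjusted p = 0.00744 and 0.00345). Rtp4 was lower in pDC, with a log2 fold change of -3.55 (adjusted p = 0.00619). Irf7 did not pass without either vehicle cDC library (adjusted p up to 0.0835), and Rtp4 did not without vehicle pDC replicate 1 or vehicle cDC replicate 2 (up to 0.0626). With a replicate block Oasl2 (1.57, adjusted p = 0.0156) and Ifit3 (-1.57, 0.0396) passed as well, at 1.58 (0.0552) and -1.52 (0.152) without it.

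Of 18 interferon gamma targets, 1 was higher and 3 were lower in vehicle pDC than in vehicle cDC, beside 5.01% and 4.71% of all genes. These shares are those of edgeR. DESeq2, which called more of all genes, called 1 and 5, and limma-voom 1 and 3. Gbp2, a guanylate-binding protein gene, had 4.84 and 5.95 CPM in pDC and 70.0 and 81.3 CPM in cDC (log2 fold change -3.81 ± 0.34, adjusted p = 0.0024), in all 15 alternatives. Cxcl9, a chemokine gene, had 0.101 and 1.68 CPM against 44.6 and 125.5 CPM (adjusted p = 0.0273). Ciita, the master factor of MHC class II, had 260.5 and 268 CPM against 893 and 841 CPM (-1.71 ± 0.40, adjusted p = 0.048; 0.0502 with the replicate block). Iigp1, an immunity-related GTPase gene, went the other way, with 91.5 and 109 CPM in pDC and 6.57 and 12.9 CPM in cDC (3.37 ± 0.48, adjusted p = 0.0105). Cxcl9 and Ciita did not pass without any 1 of the 4 vehicle or 2 panobinostat cDC libraries (adjusted p up to 0.128 and 0.256). Cxcl9 also did not with limma-voom, nor Ciita with library size alone. Iigp1 did not without either vehicle pDC library or vehicle cDC replicate 1 (up to 0.0771). For the drug 0 of 18 passed by edgeR in pDC, in cDC or for the difference, with 8, 3 and 4 at an unadjusted p below 0.05. DESeq2 called 4, 0 and 2 of them and limma-voom 0, 0 and 0. In cDC 16 of the 18 estimates were above 0, with a median of 0.44 beside 0.00 over all genes, and in pDC 10 of 18, with a median of 0.23 beside -0.14. Without panobinostat pDC replicate 2 this median was 0.05 beside -0.07, and Gbp2 (1.64, adjusted p = 0.0215) and Ciita (-1.31, 0.0299) passed.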

How the data were processed

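The table the authors deposited gives raw read counts, with Entrez gene IDs and 1 column per library, and 0 columns were left without a sample. Per the submitters' processing notes the tools were bcl2fastq (2.17.1.14), FastQC (0.11.6), cutadapt (2.1), HISAT2 (2.1.0), featureCounts, Subread (2.0.0) and limma, with mm10 as the genome. How strand and multiply aligned reads were treated and which annotation was counted is not given in the sources used here, so near-identical genes that can share reads (Csf2rb and Csf2rb2, or the guanylate-binding protein genes) are uncertain. No molecular identifiers are recorded, and counts are not independent molecules. Of the gene IDs, 25275 (92.99%) matched a symbol.

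Counts were filtered by filterByExpr (minimum count 10, minimum total 15), scaled by TMM and fitted in R (4.3.3) with edgeR (4.0.16), 1 coefficient per group over all 8 libraries (4 residual and 2.3 prior degrees of freedom), with an adjusted p of 0.05 as the threshold. Standard errors come from the quasi-likelihood statistic. log2 CPM used a prior count of 2. Lengths are exon unions of GENCODE M21, found for 89.5% of tested genes, and may differ from the authors' annotation. The alternatives were RLE scaling, library size alone, no filter on low counts, DESeq2 (1.42.0), limma-voom (limma 3.58.1), a replicate block, only the 4 libraries compared, and each library left out in turn, where a group with 1 library left was assumed to vary like the others. The script was tested on simulated data. Same-numbered libraries of different groups deviated together (correlations 0.146 to 0.489, all above 0.1), so replicate numbers may mark a pairing. The main values printed come from the fit without a block and ignore such a pairing. The block is given beside a result where it changed a call. Among the 9 genes it also brought Stat2 in pDC and for the difference, and Ifngr1 in cDC, below an unadjusted p of 0.05. None of these passed, and Jak2 between the cell types no longer had an unadjusted p below 0.05. The labels do not say which mice share a number.

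The 9 genes, the other lists and the tests were chosen with earlier results of these data known. Named were all 9 genes, the nearest partners in the pathway (Ifnlr1, Il10rb, Irf9, Socs3, Usp18) and, of each list and comparison, up to 4 called genes per direction with the smallest p, or, with none called, up to 2 with the smallest p. Il6ra, Oasl2, Ifit3, single marker genes, and genes that passed only without a library lie outside this rule and were chosen with their values known. The likeness rule took the 1 gene with the smallest root mean square difference. A gene each of 2 lists is not reported here.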

Additional observations from a re-analysis of the deposited data

How the results depend on the processing

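With 2 libraries a group, the calls for the drug depend on the setting. Over all genes, the 13 calls in pDC became 2 with RLE scaling, 68 with no filter, 906 with DESeq2 and 0 each with limma-voom, the replicate block or only the 4 pDC libraries, and 0 to 8227 with 1 library left out. Of the 9 genes 0 became 1 with DESeq2 and 0 to 3 with 1 library left out. In cDC DESeq2 gave 15 calls in place of 0. For the difference, 1 call became 0 with RLE, library size alone, limma-voom or the replicate block, 5 with no filter, 290 with DESeq2 and 0 to 6457 with 1 library left out (0 to 3 of the 9 genes). Between the cell types, 1385 calls became 2861 with DESeq2, 4491 with only the 4 vehicle libraries and 288 to 5531 with 1 library left out. With panobinostat libraries in their place, added after the data were seen, there were 2557, 5432 without panobinostat pDC replicate 2 and 161 with those 4 alone. Of the 9 genes, the 4 called under vehicle became 2 to 6 with 1 library left out. Under panobinostat 5 were called, and 1 with those 4 libraries alone. With the replicate block under vehicle 5 of the 9 and 1241 of all genes passed. In the lists the block gained Usp18, Il6ra, Oasl2 and Ifit3 and lost Ciita between the cell types and lost Ifi27 in pDC, and it changed no other call. Library size alone shifted the median of all genes by -0.14 in pDC and in cDC, and RLE shifted it by -0.13 between the cell types. Of 531 alternative values of the 9 genes, 474 kept direction and side, and 9 lost and 19 gained the threshold. The other 29 changed sign, none of them called in the main fit. Among these 29 was the Jak2 difference, at 0.098 in the main fit and at -1.29, past the threshold, without panobinostat pDC replicate 1. The sign changes in pDC were Ifngr2 at -0.17 and Socs1 at -0.0049 with library size alone, and Ifngr2 at -0.018 with no filter and -0.057 with the 4 pDC libraries. In cDC they were Ifngr2 at -0.0070 and Tyk2 at -0.071 with library size alone. For the difference they were Ifnar2 at 0.0013 and Jak1 at 0.016 with RLE, 0.0012 and 0.016 with DESeq2, and Jak2 at -0.043 with the replicate block. With 1 library left out, the pDC effect ran from -0.50 to 0.16 for Ifnar2, -0.20 to 0.18 for Ifngr2, -0.39 to 0.14 for Jak1, -1.44 to 0.57 for Jak2 and -0.54 to 1.31 for Socs1. The difference ran from -0.44 to 0.20 for Ifnar2, -0.34 to 0.068 for Ifngr2, -0.36 to 0.18 for Jak1, -1.29 to 0.75 for Jak2 and -1.32 to 0.55 for Socs1. Leaving out panobinostat pDC replicate 1 or 2 removes the pair of libraries that lay furthest apart. The cause of the changes, with or without these libraries, was not tested.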
